A study of Rattus norvegicus with 6 samples.

Results

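Fibroblast growth factor (FGF) ligands and their receptors were followed in H9c2 cells, a rat heart-derived myoblast line, after an antisense oligonucleotide against the long non-coding RNA Tug1. The set was defined by gene symbol as 6 ligand genes (Fgf1, Fgf2, Fgf7, Fgf9, Fgf10 and Fgf18) and 4 receptor genes (Fgfr1, Fgfr2, Fgfr3 and Fgfr4), and all 10 were present among the 40456 genes of the deposited table. The measurements were poly-A RNA sequencing counts from 6 libraries, 3 of cells given a negative control gapmer and 3 of cells given the Tug1 gapmer. Gapmers are short oligonucleotides whose DNA core lets RNase H cut the RNA they pair with. All 6 libraries came from H9c2 (2-1) cells labelled WT. The cells were differentiated for 5 days in medium with 1% serum and 1 µM retinoic acid, and both gapmers were given at 25 nM for 24 h with a lipid carrier. A single gapmer sequence represented the Tug1 knockdown, a single cell line represented the cell type, and the set of 6 held no untransfected cells. Whether replicates came from separate cultures was not given in the labels, so p-values measure the spread between these libraries, which may be technical.

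FGFs are secreted signals that bind receptor tyrosine kinases together with heparan sulfate on the cell surface. A bound receptor recruits the docking protein FRS2 and passes the signal to Ras and the MAP kinases, and feedback inhibitors such as the Sprouty proteins and the phosphatase DUSP6 dampen it. In muscle precursors FGF signalling is known for favouring proliferation over differentiation, and in the heart it acts in development and in the response to injury. Alternative splicing of the third immunoglobulin domain gives Fgfr1, Fgfr2 and Fgfr3 forms with different ligand preference. Counts per gene do not separate these forms.

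The oligonucleotides that define the comparison are shown first, written 5′ to 3′ as in the labels' protocols, since they are the only designed difference between the groups.
Tug1 gapmer: attcagtagacagcta
Negative control gapmer: gctcccttcaatccaa

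The 250 bases upstream of the annotated start of each member that passed the test are shown next, from RefSeq on the rat assembly GRCr8, to give the sequence context of the transcripts that differed between groups. Capitals mark matches on either strand to 6 short motifs. They were the TATA box TATAAA, the CCAAT box CCAAT, the GC box GGGCGG and the AP-1 site TGANTCA. The others were the myogenic E-box CAGCTG and the nuclear receptor motif AGGTCA, which is only part of a full receptor element. The windows lie at chr3:133735377-133735626 on the plus strand for Fgf7, chr10:18240883-18241132 on the minus strand for Fgf18, chr15:36327108-36327357 on the plus strand for Fgf9 and chr14:81227210-81227459 on the minus strand for Fgfr3.
Fgf7: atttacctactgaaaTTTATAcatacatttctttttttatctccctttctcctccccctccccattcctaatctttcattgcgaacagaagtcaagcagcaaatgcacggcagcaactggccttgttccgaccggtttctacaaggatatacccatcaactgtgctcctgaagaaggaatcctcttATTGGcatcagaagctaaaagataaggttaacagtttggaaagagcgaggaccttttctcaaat
Fgf18: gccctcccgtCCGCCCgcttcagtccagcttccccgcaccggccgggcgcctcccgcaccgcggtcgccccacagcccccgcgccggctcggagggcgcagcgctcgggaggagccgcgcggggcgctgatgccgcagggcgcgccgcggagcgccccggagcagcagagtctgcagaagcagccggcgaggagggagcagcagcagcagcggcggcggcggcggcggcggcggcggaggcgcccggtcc
Fgf9: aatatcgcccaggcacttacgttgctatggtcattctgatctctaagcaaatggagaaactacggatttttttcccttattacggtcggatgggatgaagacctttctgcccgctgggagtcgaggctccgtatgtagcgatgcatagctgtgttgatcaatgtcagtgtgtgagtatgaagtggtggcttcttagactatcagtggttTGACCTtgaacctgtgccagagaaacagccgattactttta
Fgfr3: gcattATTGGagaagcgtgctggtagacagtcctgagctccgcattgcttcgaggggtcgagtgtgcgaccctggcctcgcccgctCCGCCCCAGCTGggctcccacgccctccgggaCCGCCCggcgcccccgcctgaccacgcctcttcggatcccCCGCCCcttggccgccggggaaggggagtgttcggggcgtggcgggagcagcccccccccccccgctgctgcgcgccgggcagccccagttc

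These upstream windows differed in base composition. The G and C content was 82.0% for Fgf18 and 74.4% for Fgfr3, against 41.6% for Fgf7, 46.0% for Fgf9 and a median of 51.2% over 33469 windows of the same length. The Fgf7 window held a TATA box match 235 bases upstream of the start and a CCAAT match 64 bases upstream. The Fgf18 window held 1 GC box match, 240 bases upstream. The Fgf9 window held 1 match to the nuclear receptor motif AGGTCA, 41 bases upstream. The Fgfr3 window held 3 GC box matches, a CCAAT match 245 bases upstream and a myogenic E-box 158 bases upstream. No 2 matches overlapped within a window, and none of the 4 windows held an AP-1 match. Over all windows, 12.9% held TATAAA, 34.0% CCAAT, 30.5% GGGCGG, 6.34% TGANTCA, 12.0% CAGCTG and 14.1% AGGTCA. Fgf7 and Fgf18, which both rose, had no motif of the 6 in common. A match describes letters in the window and not a binding site.

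Total counts ran from 12978548 to 13544337 per library, so that 1 CPM (the count scaled to library size) corresponded to 12.9 to 13.8 counts. Tug1, the targeted RNA, had 713, 672 and 718 counts in the controls and 164, 152 and 165 in the gapmer-treated cells, a log2 fold change of -2.19 with no overlap between the groups. The labels call the cells cardiomyocytes. Of 14 cardiomyocyte markers, 4 had enough counts to be tested (Tnnt2, Actc1, Myl2 and Gata4), and 3 of these were higher after knockdown, whereas Myh6, Myh7, Ryr2, Nkx2-5, Tbx5 and Nppb had at most 3 counts in any library. Of 10 skeletal muscle markers 9 were tested, and 8 of those were higher and 1 lower after knockdown, against 30.8% of all tested genes higher and 30.9% lower. Their summed level was 990 to 997 CPM in control libraries and 1450 to 1540 CPM in knockdown libraries, and 2 of 7 tested fibroblast markers were higher and 3 lower. The epithelial keratin Krt8 fell to 65.6% of the control level. It was the only 1 of 8 epithelial markers with enough counts to be tested, and 5 of the 8 had at most 3 counts in every library. The part of these marker shifts in the FGF results was not tested. In bulk RNA, a change in the number of cells of a kind and a change in RNA per cell cannot be told apart.

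The comparison asked which FGF ligand and receptor transcripts differed after Tug1 knockdown. The ligand genes Fgf7 and Fgf18 rose, by a fitted fold of 2.26 and 2.39, and Fgf9 and Fgfr3 fell to 73.7% and 67.8% of the control level. Fgf1, Fgfr2 and Fgfr4 were tested and did not pass. Fgf2, Fgf10 and Fgfr1 had too few counts to be tested. Of the 7 tested members 4 (57.1%) passed an adjusted p of 0.05, against 61.7% of all 14216 tested genes. By direction, 2 members were higher and 2 lower, against 30.8% of tested genes higher and 30.9% lower, so the share of changed members was close to that of genes in general. The control and knockdown libraries did not overlap for 5 of the 7, against 65.6% of tested genes. Fgf7 and Fgf18 were among the 4.59% of tested genes called at a positive log2 fold change of 1 or more. The median log2 fold change of the 7 was 0.21, and that of all tested genes was 0.00432. The TMM scaling of libraries places the median of all genes near 0 and so affects the split by direction. With library totals alone that median was 0.0568, and 55.7% of called genes were higher. Of the called members 3 were then higher and 1 lower. Unless another tool is named, adjusted p-values here come from the quasi-likelihood test in edgeR, adjusted by Benjamini-Hochberg over all tested genes.

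**Figure D1:**
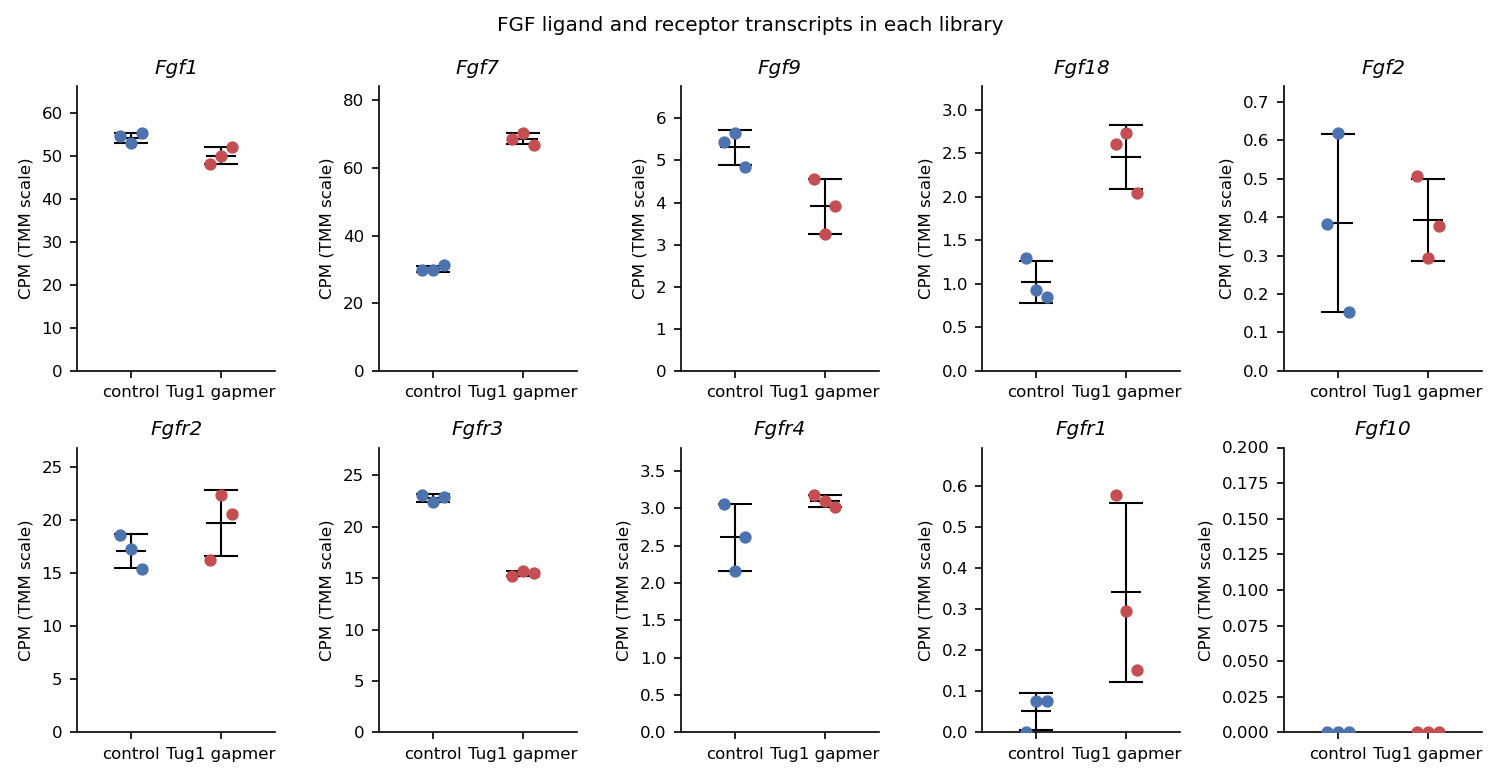
Level of each FGF ligand and receptor gene in CPM on the TMM scale, with 1 point per library and the mean and SD (n = 3) in black; each panel has its own axis starting at 0. Fgf7 libraries sit at 29.7 to 31.3 CPM in controls and 66.9 to 70.2 CPM after the Tug1 gapmer, while Fgfr2 libraries of the groups overlap and Fgf10 is at 0 throughout.

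Among the ligands, Fgf7 gave the clearest difference. Fgf7 encodes keratinocyte growth factor, a signal from mesenchymal cells to epithelia. Control replicates 1 to 3 gave 388, 386 and 407 counts of Fgf7, and Tug1 gapmer replicates 1 to 3 gave 950, 951 and 887. All knockdown libraries lay far above all control libraries, with little spread within either group. The SD of the counts was 11.6 in controls and 36.7 after knockdown, against 19.8 and 30.5 from counting alone. Mean CPM ± SD (n = 3 in each group) was 30.3 ± 0.907 without and 68.6 ± 1.68 with the Tug1 gapmer. The fitted log2 change was 1.18 ± 0.0625 (SE), at an edgeR adjusted p of 3.1e-13, with a 95% interval of the fold from 2.07 to 2.48. In GRCr8 the span of Fgf7 overlaps that of Fam227b, and use of strand in counting was not given in the sources used here. Fam227b had 19 to 47 counts per library and a log2 fold change of 0.11 (edgeR adjusted p 0.726), and the part of reads from Fam227b in the Fgf7 counts was not tested.

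Fgf18, an FGF8-subfamily ligand known from skeletal and lung development, rose from a low level. Counts of Fgf18 were 17, 12 and 11 in the 3 control libraries and 36, 37 and 27 in the 3 knockdown libraries. The lowest knockdown library was above the highest control library, although each library held few counts. Mean CPM ± SD (n = 3 in each group) was 1.03 ± 0.243 without and 2.46 ± 0.371 with the Tug1 gapmer. The fitted log2 change was 1.25 ± 0.287 (SE), at an edgeR adjusted p of 0.000603, and the 95% interval of the fold was wide, from 1.58 to 3.6. The SD of the counts within groups (3.21 and 5.51) was close to that of counting alone (3.65 and 5.77).

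Fgf9, a ligand with roles in heart and muscle development, fell modestly. The 3 control libraries held 71, 73 and 63 counts of Fgf9 and the 3 knockdown libraries 63, 44 and 52. The highest knockdown library equalled the lowest control library in raw counts and lay below it after scaling, at 4.56 against 4.85 CPM. The span of Fgf9 overlaps the long non-coding RNA gene LOC102550095, which had 13, 5 and 7 counts in the controls and 5, 6 and 4 in the gapmer-treated cells. Mean CPM ± SD (n = 3 in each group) was 5.31 ± 0.41 without and 3.91 ± 0.655 with the Tug1 gapmer, a fitted log2 change of -0.44 ± 0.178 (SE), at an edgeR adjusted p of 0.0367. The call was lost when libraries were scaled by their totals alone (edgeR adjusted p 0.0649), in DESeq2's Wald test (adjusted p 0.0954), and without control replicate 1 (0.0814), control replicate 2 (0.105), knockdown replicate 2 (0.154) or knockdown replicate 3 (0.0693) in edgeR.

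Fgf1, the acidic FGF that binds all FGF receptors, was nearly level. Control replicates 1 to 3 gave 713, 684 and 717 counts of Fgf1, and Tug1 gapmer replicates 1 to 3 gave 664, 676 and 690. After scaling the groups did not overlap (52.9 to 55.2 against 48.1 to 52.0 CPM), but they lay close together. The fitted log2 change was -0.12 ± 0.0605 (SE), at an edgeR adjusted p of 0.0975, with a 95% interval of the fold from 0.845 to 1.01. With an offset that removes a trend of expression change on genomic span, Fgf1 was at -0.28 and passed (edgeR adjusted p 0.000167). Fgf1 has a span of 86117 bases in the gene table. This span overlaps that of Arhgap26, which had 5 to 14 counts per library.

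The remaining ligands were at or near the limit of detection. Fgf2, basic FGF, had 5, 8 and 2 counts in the control libraries and 7, 4 and 5 in the knockdown libraries. The ratio of its summed counts was 1.03, with an exact 95% interval for counting error from 0.475 to 2.23. These counts do not distinguish between ratios within those bounds. The span of Fgf2 overlaps that of Nudt6, which had 51 to 74 counts per library. Fgf10, which shares the receptor preference of Fgf7, had 0 counts in all 6 libraries, which allows a level of up to 0.217 to 0.232 CPM (3 counts per library, counting error only).

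Taking the 6 ligand genes as counts within each library, which removes library scaling, Fgf7 made up 32.5% to 33.9% of ligand counts in controls and 53.4% to 55.5% after knockdown. The share of Fgf1 was 58.8% to 59.8% in controls and 38.6% to 41.5% after knockdown. Shares within a library depend on each other, so a share can fall while the level of the gene is nearly unchanged. Fgf1 itself was at a log2 fold change of -0.12 and did not pass the test. The number of Fgf7 counts per Fgf1 count was 0.544, 0.564 and 0.568 in the 3 control libraries and 1.43, 1.41 and 1.29 in the 3 knockdown libraries. Ligand counts together rose from 1163 to 1200 per control library to 1661 to 1720 per knockdown library. Counts are not corrected for transcript length, so these shares compare libraries and not the abundance of 1 gene with another.

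**Figure D2:**
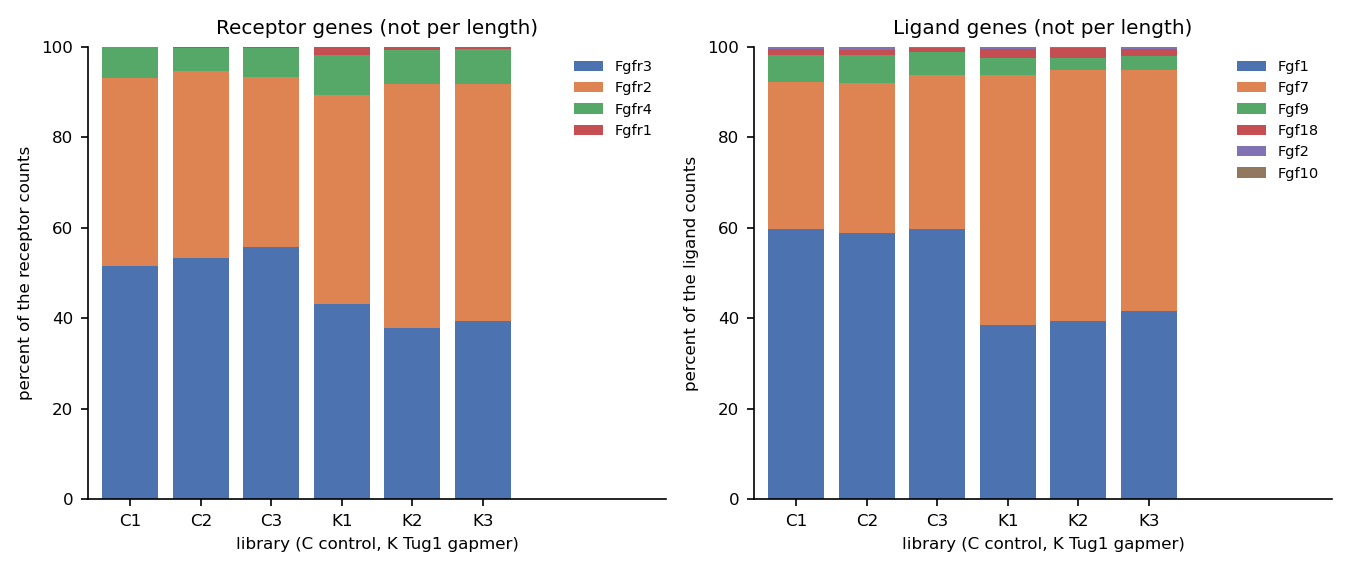
Share of each gene in the summed counts of the 4 receptor genes (left) and of the 6 ligand genes (right), in percent, for control libraries C1 to C3 and Tug1 gapmer libraries K1 to K3, without correction for transcript length. Fgf7 takes 53.4% to 55.5% of ligand counts in K1 to K3, and Fgfr3 falls from 51.6% or more of receptor counts in C1 to C3 to at most 43.1% in K1 to K3.

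Among the receptors, only Fgfr3 passed the test. FGFR3 is a receptor tyrosine kinase best known as a brake on growth plate cartilage. The 3 control libraries held 302, 290 and 297 counts of Fgfr3 and the 3 knockdown libraries 210, 213 and 205. Both groups were tight and well apart, with an SD of the counts of 6.03 in controls and 4.04 after knockdown. These lay below the SDs of counting alone (17.2 and 14.5), so the spread seen between libraries understates the uncertainty. Mean CPM ± SD (n = 3 in each group) was 22.8 ± 0.361 without and 15.5 ± 0.267 with the Tug1 gapmer. The fitted log2 change was -0.56 ± 0.0861 (SE), at an edgeR adjusted p of 5.99e-06, with a 95% interval of the fold from 0.599 to 0.767. In the gene table no other gene overlapped the span of Fgfr3.

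Fgfr2, whose epithelial splice form is the main receptor of Fgf7, did not pass. Control replicates 1 to 3 gave 243, 224 and 200 counts of Fgfr2, and Tug1 gapmer replicates 1 to 3 gave 225, 303 and 273. Knockdown replicate 1 lay within the control range, and the other knockdown libraries lay above it. Mean CPM ± SD (n = 3 in each group) was 17.1 ± 1.61 without and 19.7 ± 3.13 with the Tug1 gapmer, and the fitted log2 change of 0.21 ± 0.109 (SE) did not pass, at an edgeR adjusted p of 0.108. The SD of its knockdown counts was 39.3, against 16.3 from counting alone. Without knockdown replicate 1 the log2 fold change was 0.33 and passed (edgeR adjusted p 0.00813), and with library totals it was 0.26 and passed (0.0441). With the offset for genomic span it was at 0.00424.

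Fgfr4, a receptor expressed in muscle precursors and liver, had 40, 28 and 34 counts in the control libraries and 44, 42 and 40 in the knockdown libraries. The groups overlapped after scaling. Mean CPM ± SD (n = 3 in each group) was 2.61 ± 0.45 without and 3.1 ± 0.0841 with the Tug1 gapmer, a fitted log2 change of 0.24 ± 0.216 (SE), at an edgeR adjusted p of 0.335, with a 95% interval of the fold from 0.869 to 1.62.

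Fgfr1, in many tissues the main FGF receptor of mesenchymal cells, was nearly absent from the counts. The 3 control libraries held 0, 1 and 1 counts of Fgfr1 and the 3 knockdown libraries 8, 4 and 2. No control library exceeded 3 counts, the number taken here as the limit of detection, and 2 of the knockdown libraries did. The ratio of the summed counts (14 against 2) was 6.73, with an exact 95% interval for counting error from 1.55 to 61.0. Fgfr1 did not pass the expression filter; without that filter its edgeR adjusted p was 0.0462, with a fitted fold change that depends on the prior count and is not used. Cdh2, another gene of the cofactor list, was also nearly without counts, with 0 to 2 per library. How reads were assigned to genes was not given in the sources used here, and whether reads of Fgfr1 or Cdh2 were lost in counting was not tested.

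Within the 4 receptor genes, Fgfr3 took 51.6%, 53.4% and 55.8% in the 3 control libraries and 43.1%, 37.9% and 39.4% in the 3 knockdown libraries. Fgfr2 made up 37.6% to 41.5% in controls and 46.2% to 53.9% after knockdown. Here too the shares depend on each other, and Fgfr2 itself did not pass the test. The number of Fgfr2 counts per Fgfr3 count was 0.673 to 0.805 in controls and 1.07 to 1.42 after knockdown. These shares and ratios compare libraries, with no correction for transcript length, and they take the Fgfr1 counts as deposited. The receptor counts together were 532 to 585 per control library and 487 to 562 per knockdown library, and these ranges overlapped.

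Other genes of the FGF system were read from lists of known components. Of 13 further secreted FGFs, 12 were in the table and 7 of these had no more than 3 counts in any library. Fgf22 and Fgf21 were tested. Fgf22, a ligand known from synapse formation, had 131, 141 and 140 counts in the controls and 174, 179 and 183 in the gapmer-treated cells, a fitted log2 change of 0.32 ± 0.109 (SE), at an edgeR adjusted p of 0.0137. That call was lost in DESeq2's Wald test (adjusted p 0.0515) and without control replicate 1 (edgeR adjusted p 0.0575). Fgf21, a hormone-like FGF released under metabolic stress, was at 0.74 and did not pass (edgeR adjusted p 0.0608), with 7 to 18 counts in controls and 19 to 28 after knockdown.

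Of the 4 FGF homologous factors, which stay inside the cell and bind sodium channels instead of FGF receptors, Fgf11 and Fgf13 were tested. Fgf13 rose, with 26, 28 and 22 counts in the controls and 81, 47 and 76 in the gapmer-treated cells. The fitted log2 change was 1.36 ± 0.232 (SE), at an edgeR adjusted p of 2.38e-05. It was 0.93 with the offset for genomic span, and Fgf13 has a long span of 526201 bases. Fgf11 was at 0.14 (edgeR adjusted p 0.11).

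**Figure D3:**
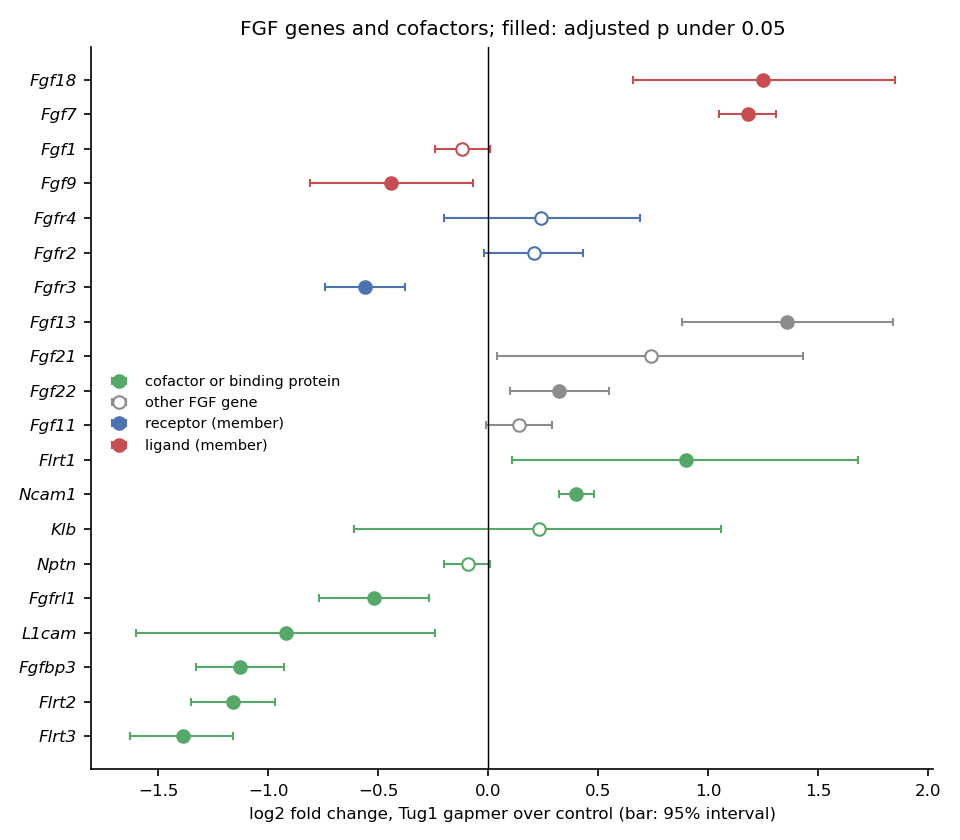
Log2 fold change (Tug1 gapmer over control) with its 95% interval for each tested FGF gene, receptor and cofactor; filled points passed an adjusted p of 0.05 and open points did not. Fgf18 (1.25), Fgf7 (1.18) and Fgf13 (1.36) stand to the right, and Flrt3 (-1.39), Flrt2 (-1.16) and Fgfbp3 (-1.13) to the left.

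Cofactors and binding proteins of FGFs moved mostly downward. Of 13 listed genes 9 were tested, and 5 were lower and 2 higher, or 77.8% changed against 61.7% of all tested genes. Flrt3 and Flrt2, membrane proteins with fibronectin and leucine-rich repeats that interact with FGF receptors, fell to 38.1% and 44.7% of the control level. Fgfbp3, a carrier that frees FGFs from the matrix, had 434, 465 and 368 counts in the controls and 222, 191 and 191 in the gapmer-treated cells, and fell to 45.8%. Fgfrl1, a receptor-like protein without a kinase domain, fell to 69.7%. Ncam1, an adhesion molecule that can bind FGF receptors, was higher at a log2 fold change of 0.40 but at 0.03 with the offset for genomic span (edgeR adjusted p 0.486). Flrt1 was at 0.90 with 7 counts in each control library and 11 to 16 after knockdown. Its edgeR adjusted p of 0.0454 rose to between 0.0982 and 0.153 when any library other than knockdown replicate 1 was left out. The call was also lost in DESeq2's Wald test (adjusted p 0.165) and in limma-voom (adjusted p 0.0554). In edgeR it was lost without the expression filter (adjusted p 0.119) and with the offset for genomic span (0.094). The klotho co-receptor Klb, required by hormone-like FGFs, had 4 to 20 counts in any library (log2 fold change 0.23, edgeR adjusted p 0.644), and Kl had 1 count in all.

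Heparan sulfate genes changed in both directions. Of 20 listed genes 17 were tested, and 10 were higher and 5 lower, or 88.2% changed against 61.7% of all tested genes. The shifts were not larger than elsewhere, with a median absolute log2 fold change of 0.26, against 0.34 for all tested genes. With the offset for genomic span 6 were higher and 6 lower. The syndecans Sdc1 and Sdc4 fell to 50.9% and 70.1% of the control level, and the glypican Gpc1 fell to 82.0%. These 3 encode core proteins that carry the chains, as do Gpc4 and Hspg2, which also fell, whereas the core protein genes Sdc2 and Gpc6 were higher. Ext1, part of the chain polymerase, rose 1.53-fold, and Sulf1, which removes sulfate groups from finished chains, rose 1.62-fold. With the offset for genomic span the log2 fold change of Ext1 went from 0.61 to 0.25. That of Sulf1 went from 0.69 to 0.41, and both genes still passed. Hs6st2, a sulfotransferase, was at 1.04 from 5 to 7 counts in controls and 12 to 16 after knockdown (edgeR adjusted p 0.0242). That call was lost in DESeq2's Wald test (adjusted p 0.113). In edgeR it was lost without the expression filter (adjusted p 0.0685) and with the offset for genomic span (0.14). It was also lost in edgeR without control replicate 3 (adjusted p 0.0959) or knockdown replicate 2 (0.0975). The summed level of the list was 3360 to 3570 CPM in controls and 3090 to 3330 CPM after knockdown.

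Among 23 docking and Ras-MAPK genes, all tested, 11 were higher and 5 lower, or 69.6% changed against 61.7% of all tested genes. The median log2 fold change was 0.22. The median absolute log2 fold change was 0.32, against 0.34 for all tested genes. The receptor docking gene Frs2 was higher (0.40), as were Sos2, a Ras exchange factor (0.88), the kinase Araf (0.65) and the phosphatase Ptpn11 (0.60). Crkl, an adaptor that binds FGF receptors and FRS2, fell to 45.0% of the control level, with 951, 952 and 926 counts in the controls and 480, 417 and 430 in the gapmer-treated cells. The kinase Map2k1 fell to 79.9%. Frs2, like Cdh2, Krt8, Fgf11, Fgf21, Klb, Kl, Gpc4, Hspg2, Sdc2 and Gpc6, lies outside the rule for named genes and was chosen after its values were seen.

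Feedback inhibitors and transcriptional targets of FGF and ERK signalling were mostly lower. Of 15 tested genes 12 were lower and 1 higher (86.7% changed, against 61.7% of all tested genes), with a median log2 fold change of -0.69. Spry1 fell to 19.6% and Dusp6 to 20.6% of the control level, and the immediate early gene Fos to 34.7%. Spry2 (-0.28) and Spred1 (-0.19) were slightly lower. Spred1 did not pass with scaling by totals (edgeR adjusted p 0.099), in DESeq2's Wald test (0.0544), or without control replicate 1 (0.149) or knockdown replicate 2 (0.106). Etv1 was the single gene that rose (0.31), and it did not pass with the offset for genomic span (edgeR adjusted p 0.323), in DESeq2's Wald test (0.064) or without knockdown replicate 1 (0.126). These genes respond to many receptors besides those for FGF, and their relation to the ligand and receptor changes was not tested.

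**Figure D4:**
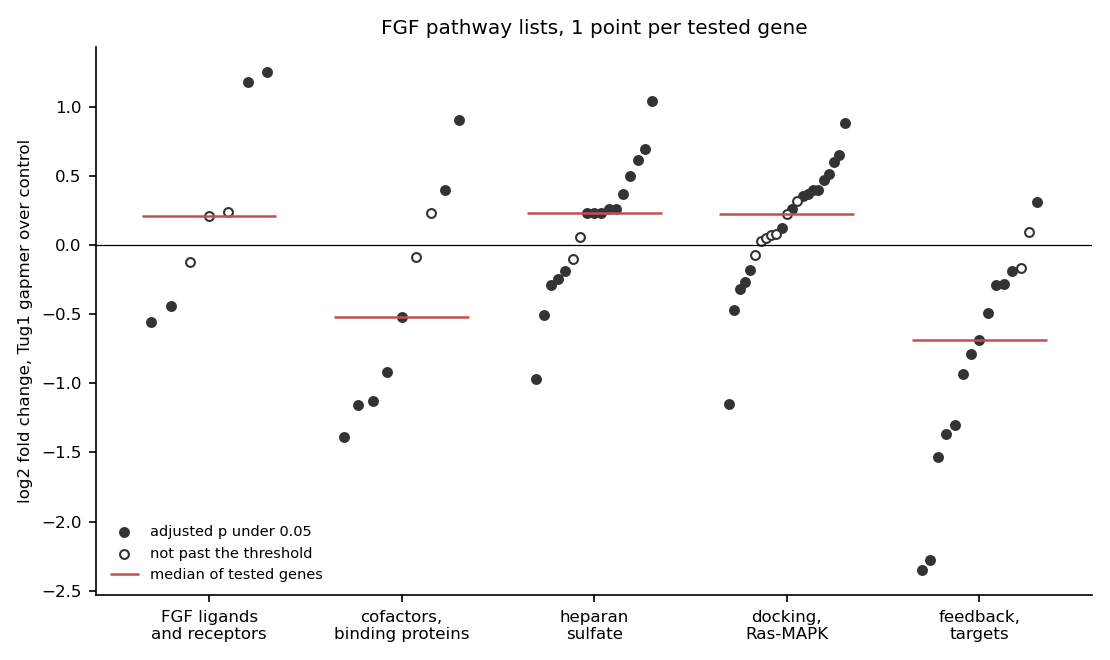
Log2 fold change (Tug1 gapmer over control) of each tested gene in 5 lists of the FGF system; filled points passed an adjusted p of 0.05, open points did not, and the red line is the median of the tested genes. The feedback and target list has 12 of 15 genes called lower and a median of -0.69, while the FGF ligands and receptors split between 2 higher, 2 lower and 3 not past the threshold.

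By the closeness of log2 CPM profiles over the 6 libraries, each centred on its own mean, the genes most like Fgf18 among 12080 others were Zc3h12b, Sptbn5 and Zfp758, with root mean square differences of 0.08, 0.121 and 0.122. Those most like Fgfr3 were Pik3c2a, Serp1 and Abhd5, at 0.00638, 0.0188 and 0.0198. For Fgfr3 831 genes lay within 0.1, and for Fgf18 1 did. The SD of counting alone was 5.81% of the mean count for Fgfr3 in controls and 6.91% after knockdown. For Fgf18 it was 27.4% and 17.3%. The differences of the named genes were smaller than this counting error, so their order is not informative. How far counting error set the number of genes within 0.1 was not tested.

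The members differed in how far their values depended on the processing. Fgf7, Fgf18 and Fgfr3 passed their threshold in each of 16 alternatives, with log2 fold changes from 1.08 to 1.23, from 1.14 to 1.46 and from -0.57 to -0.51. Fgfr4 passed in none, at 0.12 to 0.37. Fgf9 (-0.56 to -0.32), Fgfr2 (0.000449 to 0.33) and Fgf1 (-0.28 to -0.06) changed sides of the threshold under some alternatives without changing direction.

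**Figure D5:**
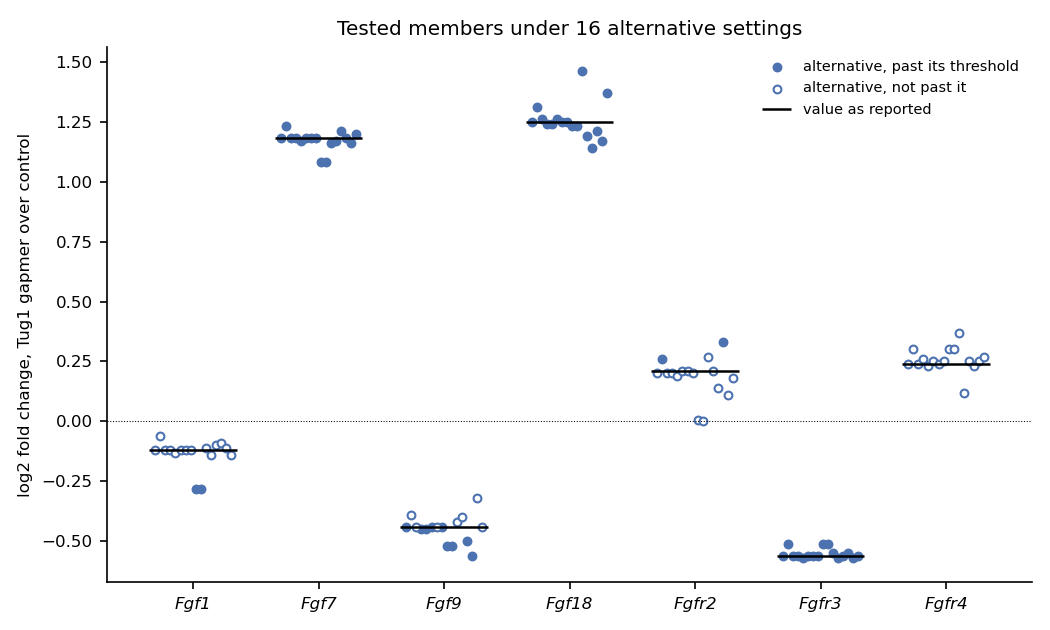
Log2 fold change (Tug1 gapmer over control) of the 7 tested members under 16 alternative settings; each point is 1 alternative, filled where it passed its own threshold, and the black line is the value as reported. Fgf7, Fgf18 and Fgfr3 are filled throughout, Fgf9 is filled in 9 of 16 and Fgfr4 in 0.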

How the data were processed

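The deposited table holds whole-number counts, 1 column per library, which were taken as raw and unscaled. Whether runs or cultures were pooled within a column cannot be seen from its values. Per the submitters' processing notes, FastQC 0.11.7, fastp 0.14.1 and STAR 2.5 were used; counting tool, genome build, annotation and strand setting were not given in the sources used here. Stranded libraries came from 500 ng of RNA with integrity numbers of at least 9, per the labels' protocols.

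All genes were fitted together in edgeR 4.0.16 (R 4.3.3): expression filter (minimum count 10, total 15), TMM scaling (factors 0.979 to 1.02), quasi-likelihood test (two-sided, prior count 0.125) without a block, and Benjamini-Hochberg adjustment over 14216 genes. A positive fold change means more RNA after the Tug1 gapmer. Levels are CPM on the TMM scale. Genes with an adjusted p under 0.05 were called, and 3 counts were taken as the limit of detection. Intervals for counts are exact (Clopper-Pearson) and cover counting error only.

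Alternatives were DESeq2 1.42.0, limma-voom (limma 3.58.1), DESeq2 size factors, library totals, no filter, a minimum mean of 1 CPM, a stricter threshold (adjusted p under 0.01), a block on replicate number, an offset from a lowess trend (span 0.3) on log2 genomic span in the RefSeq table of GRCr8, that offset with the block, and each library left out. The scripts were tested on simulated data. The members, lists and tests were chosen with earlier results of these data known. Named genes were the members and, from each list, up to 3 called genes from either end of the fold changes, of which 1 is not reported here. All 10 members matched the RefSeq table by symbol. Replicate pairs differed by more than sampling noise (chi-square per gene 2.09 to 3.35). Protein sequences were not used here.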

Additional observations from a re-analysis of the deposited data

How the results depend on the processing

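All alternatives were planned. Over all of them Tug1 lay between -2.22 and -2.08, and 7353 to 8987 genes were called. With 1 library fewer the ranges were -2.22 to -2.15 and 8128 to 8410. The number of changed members was 3 to 5. Of 112 values for the 7 tested members 101 kept their direction and side of the threshold, 7 were weaker, 4 stronger and 0 reversed; of 414 values for 26 other named genes 380 kept both, 34 were weaker and 0 reversed. Small lists moved most: changed genes among the other secreted FGFs, 1 as reported, numbered 2 with library totals, without a filter and with the length offset (alone or with the replicate block), 0 with DESeq2's Wald test and an adjusted p under 0.01, and 0 to 2 when a library was left out (0 without control replicate 1, 2 without control replicate 3 or knockdown replicate 1). Changed FGF homologous factors, 1 as reported, numbered 2 with library totals and with the length offset, alone or with the replicate block. Fewer genes were tested with the length offset (13084). Whether that smaller number, or anything else, moved the list counts was not tested. Replicate numbers are shared between the groups, and same-numbered libraries had deviations with correlations of -0.00531, 0.0298 and 0.027 across genes. These values pool all tested genes, so whether libraries were paired cannot be decided from them. A fit with a replicate block called 8848 genes and 4 members, Tug1 was at -2.19, and among the named genes Flrt1 lost its call (edgeR adjusted p 0.0572). Depth limits Fgf2, Fgf18, Fgfr1, Flrt1 and Hs6st2, which had fewer than 40 counts in every library.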
